A study of Mus musculus with 12 samples.

Results

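Genes for breaking down glycogen were compared between control mouse hearts and hearts of mice carrying mutant IDH2, the mitochondrial NADP-dependent isocitrate dehydrogenase. The genes were the 5 that encode subunits of phosphorylase kinase (Phkg1, Phkg2, Phka1, Phka2 and Phkb), the 3 glycogen phosphorylase genes (Pygm, Pygb and Pygl) and Gaa, the lysosomal acid alpha-glucosidase gene. They were taken as a list of gene names, drawn up with earlier results of these data known, and all 9 were found among the 19937 genes of the array table, each with 1 probe set. In assembly GRCm38.p6 the X chromosome holds Phka1 and Phka2, and the other 7 lie on separate autosomes. The study held 12 arrays of heart RNA, 4 from control mice, 4 from mice with mutant IDH2 R140Q and 4 from mice with mutant IDH2 R172K. All mice shared a mixed background of the strains C57BL/6, 129/sv and Balb/c. The protocols in the labels state that mutant mice were 5 weeks old when dosed with 2 mg 4-hydroxytamoxifen, an activator of tamoxifen-inducible Cre recombinases, for 3 days. The sources used here give neither the treatment of control mice nor the promoter or Cre line behind the alleles, the sex or the age at dissection, so effects of the drug and of the mutation cannot be told apart in comparisons with control. Nothing in the labels says that each array is a separate animal, and the p-values then rest only on how far these samples spread, which may be technical.

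Glycogen phosphorylase cleaves glucose 1-phosphate from the ends of glycogen chains, and phosphorylase kinase switches it on by phosphorylation. The kinase is built from a catalytic gamma subunit, the regulatory alpha and beta subunits that are targets of protein kinase A, and a delta subunit that is calmodulin and senses calcium. Muscle and liver forms exist for several parts, and the heart is known to use both the muscle and the brain phosphorylase to supply glucose units when work or adrenaline rises. Gaa works apart from this cascade and degrades glycogen inside lysosomes, where its loss causes Pompe disease.

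Values are log2 of the deposited intensity, and a gene was called changed at a limma adjusted p under 0.05 over all 19937 genes. Array medians lay between 74.8 and 78.0 intensity units. The cardiac markers Myh6 (means of 13.38, 13.22 and 13.12 in the control, R140Q and R172K groups) and Tnnt2 (13.62, 13.52 and 13.58) were bright in all groups. Some arrays stood apart in markers of neighbouring tissue. The summed intensity of 7 atrial genes was 29110 on control 3, 1537 on R140Q 2 and 6092 to 21016 on the other arrays. Among these genes Nppa varied most within R140Q (SD 2.54). The sum of 8 lung epithelium genes was 5223 on R140Q 4 and at most 449 elsewhere. R172K 4 had the lowest summed intensity of 10 cardiomyocyte genes, 73979 against 87493 to 101199 on the other arrays.

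In R140Q hearts 2 of the 9 genes changed, against 2.20% of all genes tested. Phkg1 fell and Phka1 rose. In R172K hearts 4 of 9 changed, against 13.0% of all genes, with Phkg1, Phkb and Pygm lower and Phka1 higher. Between the mutants 1 of 9 differed, against 1.48% of all genes, and this was Phkb, lower in R172K. The median log2 difference of the 9 genes was -0.02 for R140Q and -0.15 for R172K, where that of all genes was 0.0030 and -0.0033. Both comparisons with control use the same 4 control arrays. Markers of other heart cells moved in the same hearts: 5 of 8 fibroblast genes rose in R172K, and 3 of 8 endothelial genes rose in R140Q and 2 of 8 in R172K. The fibroblast genes that rose were Pdgfra, Col1a1, Col1a2, Col3a1 and Postn. Dcn (0.10), Lum (0.19) and Tcf21 (0.12) did not pass in R172K. The summed endothelial intensity was 7757 to 8191 on control arrays, 9925 to 10432 on R140Q arrays and 8673 to 10097 on R172K arrays. The fibroblast sum was 8574 to 11126, 9162 to 14665 and 10818 to 22150. Among R172K arrays it was highest on R172K 4 and lowest, inside the control range, on R172K 3. The part of these markers in the results was not tested.

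**Figure D1:**
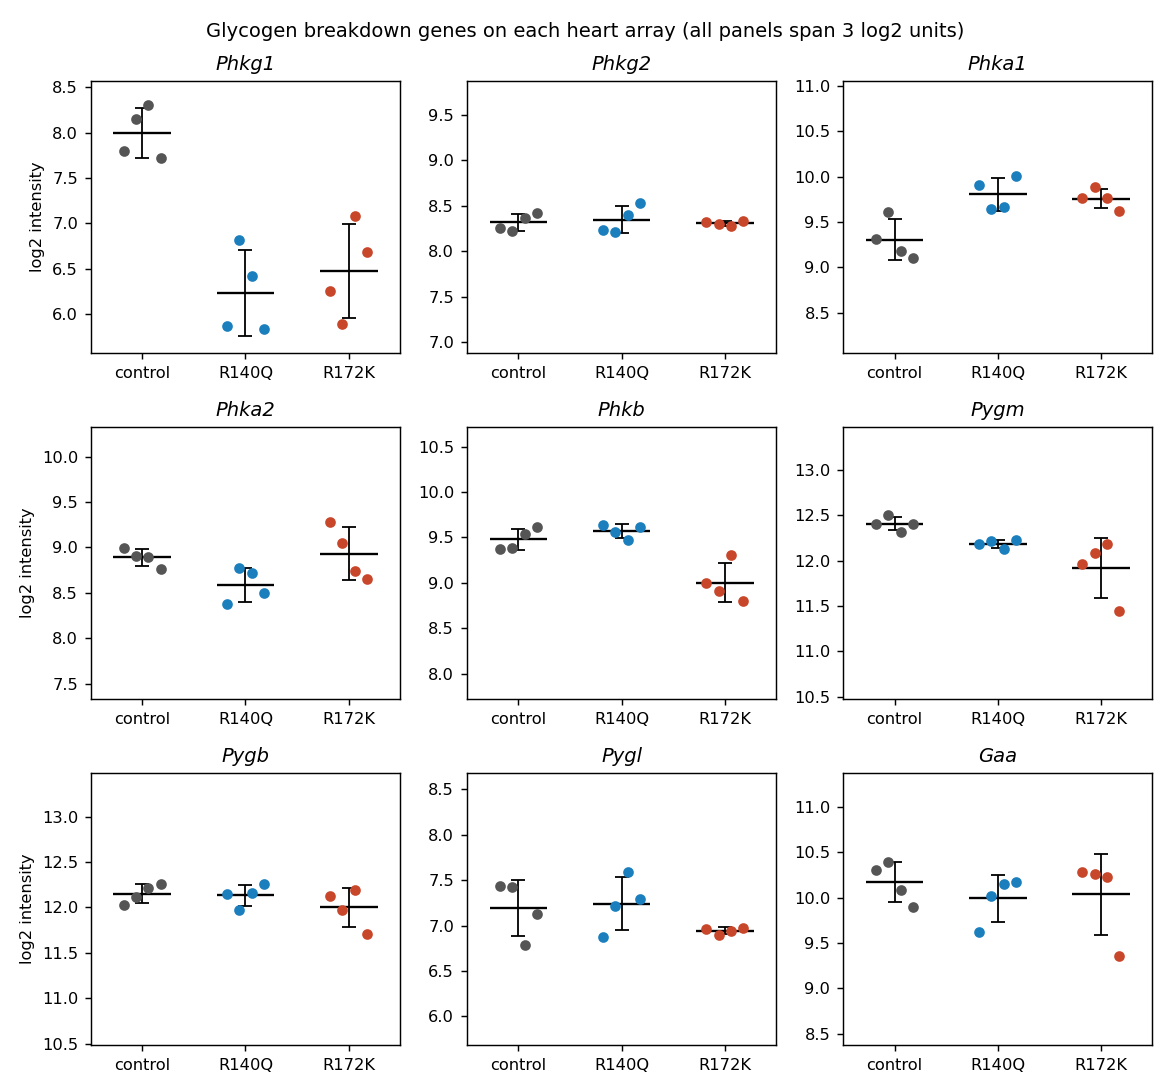
Log2 intensity (vertical axis) of each of the 9 genes on the 12 heart arrays, by group (horizontal axis), with points for arrays, long bars for group means and whiskers for SD. Phkg1 lies between 7.72 and 8.30 on control arrays and at 7.08 or below on every mutant array, while Phkb is low on R172K arrays only.

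The catalytic subunits came first. Phkg1, the muscle gamma subunit that carries the kinase activity, read 7.80, 8.15, 8.30 and 7.72 on control arrays 1 to 4. It read 5.86, 6.82, 6.42 and 5.83 on the R140Q arrays and 6.25, 5.89, 7.08 and 6.69 on the R172K arrays. Every mutant array lay below every control array, and the highest mutant value was on R172K 3. The control mean was 7.99 ± 0.28 (SD, n = 4), that of R140Q hearts was 6.23 ± 0.47 and that of R172K hearts was 6.48 ± 0.52. Phkg1 thus fell by 1.76 ± 0.27 (SE) in R140Q hearts, to 0.296 times the control level (limma adjusted p = 0.00639). It fell by 1.52 ± 0.27 in R172K hearts, to 0.350 times control (adjusted p = 0.00472). The log2 medians of all probe sets were 6.225 to 6.286 over the arrays, so the R140Q mean lay near them. No detection calls were used, so the mutant values may hold background, and the folds may be affected by it. The mutants were not separated from each other for this gene, with a difference of 0.24 and a 95% interval from -0.33 to 0.82 (adjusted p = 0.738).

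Leaving out any 1 array kept both calls, with R140Q differences from -1.95 to -1.62 and R172K differences from -1.72 to -1.32. With the intensity of the atrial light chain gene Myl7 as a covariate, the R140Q difference was -1.39 (adjusted p = 0.149), and it no longer passed. Myl7 ranged from 6.18 to 12.49 on control arrays, from 5.23 to 6.04 on R140Q arrays and from 7.43 to 11.36 on R172K arrays. Control 2, the control array lowest in Myl7, read 8.15 for Phkg1, and control 3, the highest in Myl7, read 8.30. Myl7 did not overlap between control and R140Q arrays, so its part and that of the group cannot be told apart. The part of atrial tissue in the Phkg1 values was not tested. Without control 3, R172K 3 and R140Q 4 together, both Phkg1 calls held.

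Phkg2, the gamma subunit of liver and testis, passed in no comparison. It lay between 8.23 and 8.42 on control arrays, between 8.21 and 8.53 on R140Q arrays and between 8.27 and 8.33 on R172K arrays, so all 3 groups overlapped. Its difference was 0.03 in R140Q hearts (95% interval -0.14 to 0.20, adjusted p = 0.906) and -0.0095 in R172K hearts (-0.18 to 0.16, adjusted p = 0.961). Levels of 2 probe sets cannot be set against each other, but their difference within an array can be followed across arrays. Phkg1 minus Phkg2 averaged -0.33 ± 0.31 on control arrays, -2.11 ± 0.56 on R140Q arrays and -1.83 ± 0.53 on R172K arrays. Every control array lay at -0.70 or above and every mutant array at -1.20 or below.

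A few bright markers of fast skeletal muscle were lower in the hearts where Phkg1 was lower, while most of the list did not pass. The summed intensity of the 16 genes in that list was 2650 to 3668 on control arrays, 1174 to 1948 on R140Q arrays and 1409 to 1861 on R172K arrays. In R140Q hearts 1 of 16 fell, the tropomodulin gene Tmod4 (-2.14), and none rose, against 2.20% of all genes called. In R172K hearts 2 of 16 fell, the calsequestrin gene Casq1 (-2.59) and the myosin binding protein gene Mybpc2 (-1.32), and none rose, a share near the 13.0% of all genes called. Casq1 (-2.03) and Mybpc2 (-0.81) were also lower in R140Q hearts, and Tmod4 (-1.31) in R172K hearts. These did not pass in limma (adjusted p from 0.0600 to 0.0687). Myl1 averaged 9.08 on control arrays. Its differences of -0.78 in R140Q and -0.90 in R172K hearts did not pass in limma either (adjusted p = 0.366 and 0.176). The median difference of the 16 genes was -0.08 in R140Q and -0.12 in R172K hearts, and 4 and 5 of them lay above control, among them Tnnt3 (0.40) and Myoz1 (0.41) in R172K, which did not pass. The myosin genes that define fast fibres were dim and close to each other in all groups. The means of Myh4 were 4.83 for control, 4.81 for R140Q and 4.72 for R172K arrays, Myh1 read 4.84, 4.87 and 4.97, and Myh2 read 5.69, 5.73 and 5.70. The part of these markers in the fall of Phkg1 was not tested. In heart tissue as a whole, fewer cells of a type and less RNA per cell cannot be told apart.

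The regulatory alpha subunits came next. Phka1, the muscle alpha subunit, read 9.32, 9.61, 9.18 and 9.10 on control arrays, 9.91, 9.64, 9.66 and 10.00 on R140Q arrays and 9.77, 9.88, 9.76 and 9.62 on R172K arrays. Each mutant array lay above each control array, but control 2, at 9.61, lay just under R172K 4, at 9.62. The rise was 0.50 ± 0.12 in R140Q hearts, to 1.42 times control (adjusted p = 0.0462), and 0.45 ± 0.12 in R172K hearts, to 1.37 times control (adjusted p = 0.0231). The mutants differed by -0.05 (95% interval -0.30 to 0.20, adjusted p = 0.904).

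These Phka1 calls sat near the threshold. The R140Q call was lost without control 1, 3 or 4, without R140Q 1, 3 or 4 and without R172K 1 or 2, where differences over all 12 omissions ran from 0.43 to 0.61 (adjusted p from 0.0253 to 0.122). The R172K call was lost without control 1, 3 or 4 and without R172K 1 or 2, with differences from 0.39 to 0.56 (adjusted p from 0.0135 to 0.0659). Without control 3, R172K 3 and R140Q 4 together the differences were 0.39 (adjusted p = 0.169) and 0.41 (adjusted p = 0.0640). With Myl7 as a covariate the R140Q difference was 0.32 (adjusted p = 0.471), and with every probe set tested its adjusted p was 0.0789.

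Phka2, the liver alpha subunit, read 8.99, 8.91, 8.90 and 8.77 on control arrays and 8.38, 8.77, 8.72 and 8.50 on R140Q arrays. The R172K arrays spread more widely, at 9.28, 9.05, 8.74 and 8.65. No comparison passed: the difference was -0.30 ± 0.13 in R140Q hearts (adjusted p = 0.266), 0.04 ± 0.13 in R172K hearts (adjusted p = 0.893) and 0.34 ± 0.13 between the mutants (adjusted p = 0.214). With array weights, which gave R172K 3 and R172K 4 the lowest weights (0.365 and 0.366), the difference between the mutants was 0.52 (adjusted p = 0.0188). Phka1 minus Phka2 within an array averaged 0.41 ± 0.20 on control arrays, 1.21 ± 0.36 on R140Q arrays and 0.83 ± 0.24 on R172K arrays. The control and R140Q arrays did not overlap in this measure, the lowest R140Q value being 0.87 and the highest control value 0.71, while the R172K arrays reached down to 0.48.

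Phkb, the regulatory beta subunit that muscle and liver kinase share, was the only one of the 9 genes called between the mutants. Control arrays read 9.37, 9.39, 9.54 and 9.61, and R140Q arrays read 9.64, 9.56, 9.47 and 9.61. R172K arrays read 8.99, 8.91, 9.31 and 8.80, each below all 8 others. Phkb fell by 0.48 ± 0.10 in R172K hearts against control, to 0.719 times the control level (adjusted p = 0.0107), whichever array was left out (from -0.58 to -0.41, adjusted p up to 0.0344). Against R140Q it was lower by 0.57 ± 0.10, with a 95% interval from -0.79 to -0.35 (adjusted p = 0.0287). In R140Q hearts its difference from control was 0.09 (95% interval -0.13 to 0.31, adjusted p = 0.726). The difference between the mutants no longer passed without R140Q 1, 3 or 4 or without R172K 1 or 2 (from -0.67 to -0.50 over all omissions, adjusted p from 0.00101 to 0.0998). It was -0.57 (adjusted p = 0.0924) when only the 8 arrays of both mutants were fitted and -0.74 (adjusted p = 0.0603) with Myl7 as a covariate, and its adjusted p was 0.0553 with every probe set tested.

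**Figure D2:**
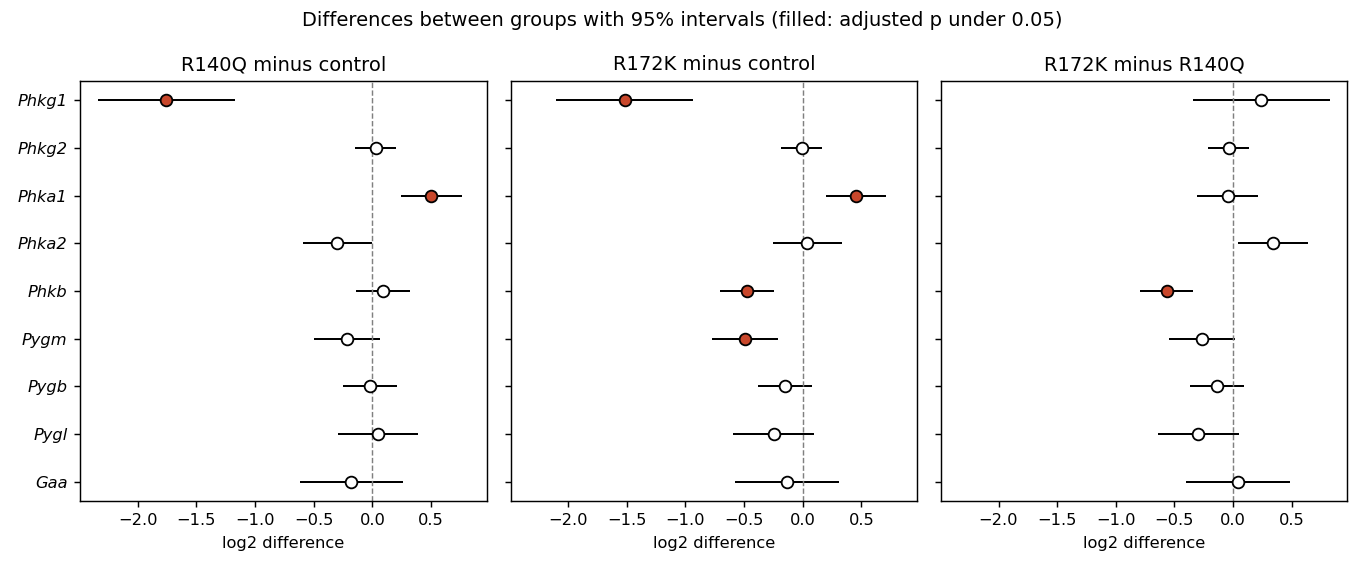
Log2 difference (horizontal axis) of each gene (vertical axis) for R140Q minus control, R172K minus control and R172K minus R140Q, with points for limma estimates and lines for 95% intervals. Filled points mark an adjusted p under 0.05: Phkg1 and Phka1 in R140Q, these with Phkb and Pygm in R172K, and Phkb between the mutants.

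Among the phosphorylases the muscle form moved. Pygm, the muscle glycogen phosphorylase whose loss causes McArdle disease, read 12.41, 12.50, 12.32 and 12.40 on control arrays. It read 12.18, 12.21, 12.13 and 12.22 on R140Q arrays and 11.96, 12.09, 12.18 and 11.45 on R172K arrays. Both mutant groups lay wholly below control, with R172K 4 the lowest array. Groups of 4 arrays did not overlap for 3 of the 9 genes in R140Q against control and for 4 of 9 in R172K against control, where 14.8% and 16.2% of all genes did not overlap. Between the mutants the groups did not overlap for 1 of 9, Phkb, against 7.72% of all genes. Pygm fell by 0.49 ± 0.13 in R172K hearts, to 0.713 times control (adjusted p = 0.0242). In R140Q hearts its difference was -0.22 ± 0.13 (95% interval -0.49 to 0.05, adjusted p = 0.421), and between the mutants it was -0.27 (adjusted p = 0.314).

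The R172K call for Pygm was lost without control 1, 2 or 4 or without R172K 1 (adjusted p from 0.0528 to 0.0708). It was also lost when only control and R172K arrays were fitted (adjusted p = 0.0664). Without R172K 4 the difference was -0.33 and still passed (adjusted p = 0.0142). Beside Pygm, 4 of 10 cardiomyocyte markers fell in R172K hearts and none rose, against 13.0% of all genes called, with a median difference of -0.26. Their summed intensity ran from 96774 to 101199 on control arrays, from 90504 to 94555 on R140Q arrays and from 73979 to 90079 on R172K arrays. In R140Q hearts none of these 10 markers passed in limma (3 at an unadjusted p under 0.05), although its sums lay below those of control. The part of these markers in the Pygm values was not tested.

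Pygb, the brain form of phosphorylase that heart muscle also makes, lay between 12.03 and 12.25 on control arrays, 11.98 and 12.26 on R140Q arrays and 11.71 and 12.20 on R172K arrays. Its lowest value was again on R172K 4. The difference from control was -0.02 in R140Q hearts (95% interval -0.24 to 0.20, adjusted p = 0.959) and -0.15 in R172K hearts (-0.37 to 0.07, adjusted p = 0.387). Centring every array on its median made the R140Q difference 0.0065 in place of -0.017. Pygm minus Pygb within an array averaged 0.25 ± 0.15 on control arrays, 0.05 ± 0.13 on R140Q arrays and -0.08 ± 0.17 on R172K arrays, and all 3 groups overlapped.

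**Figure D3:**
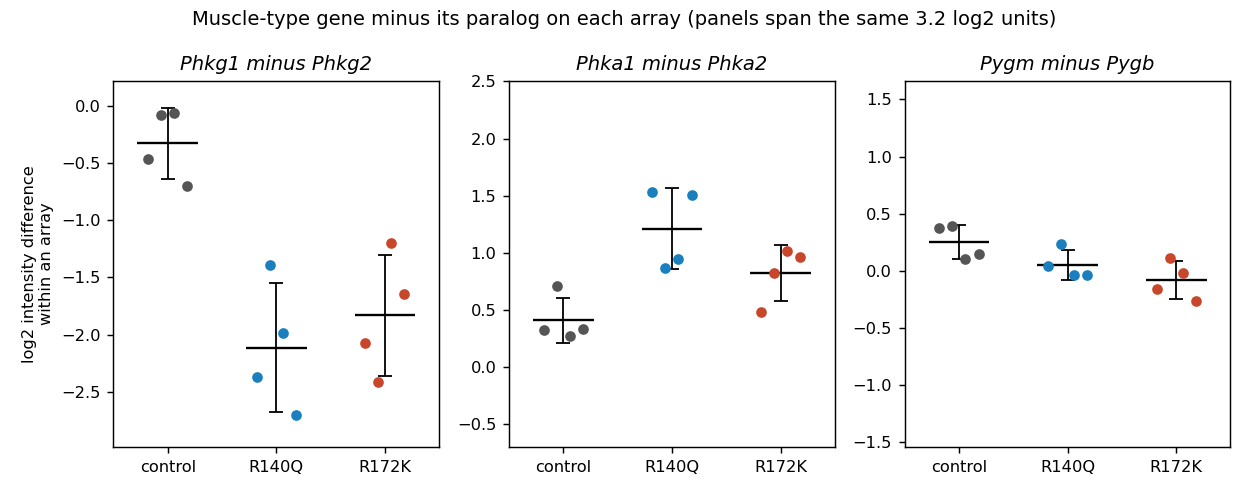
Log2 intensity of the muscle-type gene minus that of its paralog on the same array (vertical axis), by group (horizontal axis), with points for arrays, long bars for means and whiskers for SD. Phkg1 minus Phkg2 is lower on all mutant arrays than on any control array, Phka1 minus Phka2 separates R140Q from control only, and Pygm minus Pygb overlaps in all groups.

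Pygl, the liver phosphorylase, lay between 6.78 and 7.43 on control arrays, 6.88 and 7.59 on R140Q arrays and 6.90 and 6.97 on R172K arrays. Its differences of 0.05 in R140Q hearts (95% interval -0.29 to 0.38, adjusted p = 0.923) and -0.25 in R172K hearts (-0.58 to 0.09, adjusted p = 0.345) did not pass. Macrophages also make Pygl, and the summed intensity of 10 macrophage markers was 2281 to 3182 on control, 2510 to 3062 on R140Q and 2353 to 5571 on R172K arrays. None of them passed in limma in either mutant, with 1 in R140Q and 3 in R172K at an unadjusted p under 0.05. The lysosomal enzyme gene Gaa read 10.30, 10.39, 10.08 and 9.90 on control arrays, 9.62, 10.02, 10.15 and 10.17 on R140Q arrays and 10.29, 10.26, 10.23 and 9.36 on R172K arrays. R172K 4 stood well below the other 3 arrays of its group, which lay close together. Gaa differed by -0.18 in R140Q hearts (95% interval -0.61 to 0.26, adjusted p = 0.733) and by -0.13 in R172K hearts (-0.57 to 0.30, adjusted p = 0.738), and without R172K 4 the latter was 0.09.

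The promoters of the 4 genes that changed are shown because 3 of them fell in R172K hearts and 1 rose. Each sequence is a RefSeq window of assembly GRCm38.p6, on the strand of the gene, from 250 bases before the transcription start to 50 bases after it. Capitals mark each match to CANNTG, the E-box core that basic helix-loop-helix factors such as the myogenic regulators bind.
Phkg1, chr5:129879039-129879338, minus strand: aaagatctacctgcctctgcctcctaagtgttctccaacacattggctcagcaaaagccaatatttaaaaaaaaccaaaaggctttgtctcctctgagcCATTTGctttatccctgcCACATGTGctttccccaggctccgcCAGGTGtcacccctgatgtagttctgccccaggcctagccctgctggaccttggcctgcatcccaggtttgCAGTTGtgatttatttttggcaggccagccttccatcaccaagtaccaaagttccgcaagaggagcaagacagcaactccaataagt
Phka1, chrX:102644197-102644496, minus strand: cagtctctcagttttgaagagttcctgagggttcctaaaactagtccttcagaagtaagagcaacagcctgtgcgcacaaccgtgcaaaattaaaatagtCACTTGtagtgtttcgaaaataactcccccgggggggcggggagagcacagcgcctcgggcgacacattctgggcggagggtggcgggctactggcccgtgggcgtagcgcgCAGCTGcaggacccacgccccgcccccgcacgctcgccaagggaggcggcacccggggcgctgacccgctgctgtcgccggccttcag
Phkb, chr8:85840738-85841037, plus strand: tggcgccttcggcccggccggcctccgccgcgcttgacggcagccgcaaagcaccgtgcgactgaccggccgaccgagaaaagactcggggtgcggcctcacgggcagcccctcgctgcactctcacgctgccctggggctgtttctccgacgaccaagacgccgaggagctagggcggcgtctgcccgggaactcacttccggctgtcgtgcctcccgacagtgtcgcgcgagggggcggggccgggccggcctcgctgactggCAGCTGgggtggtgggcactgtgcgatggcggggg
Pygm, chr19:6384158-6384457, plus strand: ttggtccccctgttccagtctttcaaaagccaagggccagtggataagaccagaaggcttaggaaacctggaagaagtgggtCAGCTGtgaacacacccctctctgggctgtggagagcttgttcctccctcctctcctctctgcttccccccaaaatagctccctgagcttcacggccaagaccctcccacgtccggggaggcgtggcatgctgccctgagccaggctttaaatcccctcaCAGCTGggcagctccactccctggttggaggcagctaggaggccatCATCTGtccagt
The Phkg1 window holds 5 CANNTG matches, of which those starting at -133 and -131 overlap, and 2.10% of the 32851 windows in the table hold as many or more. Pygm holds 3, 1 of them starting at -8, and 17.6% of windows hold as many. Phka1 holds 2 and Phkb holds 1. Among the genes that did not pass, Phkg2 holds 1 and Gaa 3, and no match was found in the windows of Phka2, Pygb or Pygl. CANNTG occurs in 72.3% of all windows. Searched on both strands, TGACG, the core of the site for cyclic AMP responsive factors, matched in Phkb, Pygb, Pygl and Gaa and in 20.8% of all windows. GGAATG, the M-CAT element, matched in Gaa and in 14.7% of all windows, and the MEF2 site matched in none of the 9 genes and in 3.19% of all windows.

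The genes whose values most resembled Phkg1 over the 12 arrays were Isoc1 (Pearson r = 0.944), the fibroblast growth factor homologous factor Fgf14 (0.942), Tnip3 (0.941), the actin-associated palladin gene Palld (0.940) and Cc2d2a (0.934), out of 18711 other named genes. The arrays fall into groups, so r partly reflects the group means, and with those removed it was 0.739, 0.674, 0.660, 0.655 and 0.598. For Phka1 the nearest were the RNA polymerase III gene Polr3a (0.921), the peroxisomal protease gene Lonp2 (0.902) and Gabarapl1 (0.895). For Phkb they were Dnajc30 (0.968), the mitochondrial adenylate kinase gene Ak3 (0.962) and the complex I subunit gene Ndufa2 (0.960). For Pygm they were Carnmt1 (0.981), the pyruvate dehydrogenase kinase gene Pdk2 (0.981) and the mitochondrial cristae gene Immt (0.979). These correlations are descriptions, without a test.

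Other genes around glycogen breakdown were read from 4 lists, whose counts stand against 2.20% of all genes called in R140Q hearts (216 higher and 223 lower) and 13.0% in R172K hearts (1242 higher and 1351 lower). In R140Q hearts none of 8 breakdown partners passed in limma (5 at an unadjusted p under 0.05). In R172K hearts 3 of 8 rose and 1 fell. The median difference of the 8 genes was 0.32 in R140Q and 0.42 in R172K hearts. The calmodulin genes Calm3 and Calm2, which encode the delta subunit of phosphorylase kinase among many other uses of calmodulin, both rose. Calm3 averaged 9.83 on control, 10.29 on R140Q and 10.84 on R172K arrays, a rise of 1.01 ± 0.11 in R172K (adjusted p = 0.000678). Calm2 read 9.18, 9.50 and 9.97, a rise of 0.79 ± 0.13 (adjusted p = 0.00340). Both calls held whichever array was left out. The phosphoglucomutase gene Pgm2 rose by 0.53 (adjusted p = 0.0383), a call lost without control 1, 2 or 4 or R172K 1, 2 or 4, and the laforin gene Epm2a fell by 0.56 (adjusted p = 0.0180), a call lost without control 1 or 2 or R172K 1.

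Of 16 genes for glycogen synthesis and for its phosphatase, 2 rose and none fell in R140Q hearts. There 5 had an unadjusted p under 0.05 in limma. In R172K hearts 4 rose and 3 fell. The median difference was -0.01 in R140Q and 0.04 in R172K hearts. Ppp1r3c, a subunit that targets protein phosphatase 1 to glycogen, rose by 0.89 in R140Q (adjusted p = 0.00394, held without any 1 array) and by 0.44 in R172K hearts (adjusted p = 0.0190, lost without control 1 or 2 or R172K 1). The other targeting subunits that changed in R172K hearts fell: Ppp1r3b by 0.59 (held without any 1 array), Ppp1r3d by 0.40 (lost without R172K 1) and the muscle subunit Ppp1r3a by 0.85 (lost without control 1, 2 or 3 or R172K 1, 2 or 4). Ppp1r3a (-0.68) and Ppp1r3d (-0.29) were also lower in R140Q hearts but did not pass in limma (adjusted p = 0.121 and 0.129). Ppp1r3b differed there by -0.11. Ugp2, which makes UDP-glucose, rose by 0.88 in R140Q hearts (adjusted p = 0.0239, lost without control 1, 3 or 4 or R140Q 3). Its rise in R172K hearts was 0.56 (adjusted p = 0.0499), a call lost in 15 of 23 alternatives. Glycogen synthase 1 (Gys1) rose by 0.40 in R172K hearts, a call lost without control 1 or 3 or R172K 1 or 2. The branching enzyme gene Gbe1 rose by 0.66 there, a call lost without any 1 control array, R140Q 3, R172K 1 or R172K 2.

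Upstream of the cascade, none of 9 genes of beta-adrenergic and protein kinase A signalling passed in limma in R140Q hearts (3 at an unadjusted p under 0.05). In R172K hearts 2 rose and 2 fell. The median difference was -0.14 in R140Q and -0.18 in R172K hearts. Prkar1a, a regulatory subunit of protein kinase A, rose from 11.33 to 12.03 (difference 0.70, adjusted p = 0.00923, held without any 1 array). The adenylyl cyclase gene Adcy5 fell by 0.74 and the regulatory subunit Prkar2a by 0.37, both calls lost without control 1 or 2. The catalytic subunit Prkacb rose by 0.28 (adjusted p = 0.0416), a call that held without R140Q 4 and without R172K 3 and was lost without any other array. Of 7 subunits of AMP-activated protein kinase, a glycogen-binding energy sensor, none passed in R140Q hearts in limma (1 at an unadjusted p under 0.05), and the median difference was 0.05 there and 0.0094 in R172K hearts. In R172K hearts Prkag2, in which human mutations cause glycogen storage in the heart, rose by 0.60 (adjusted p = 0.0208), and Prkag3 fell by 0.36 (adjusted p = 0.0457). The Prkag2 call was lost without control 1, 2 or 4 or R172K 1, and the Prkag3 call held without R140Q 4 and without R172K 3 and was lost without any other array.

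**Figure D4:**
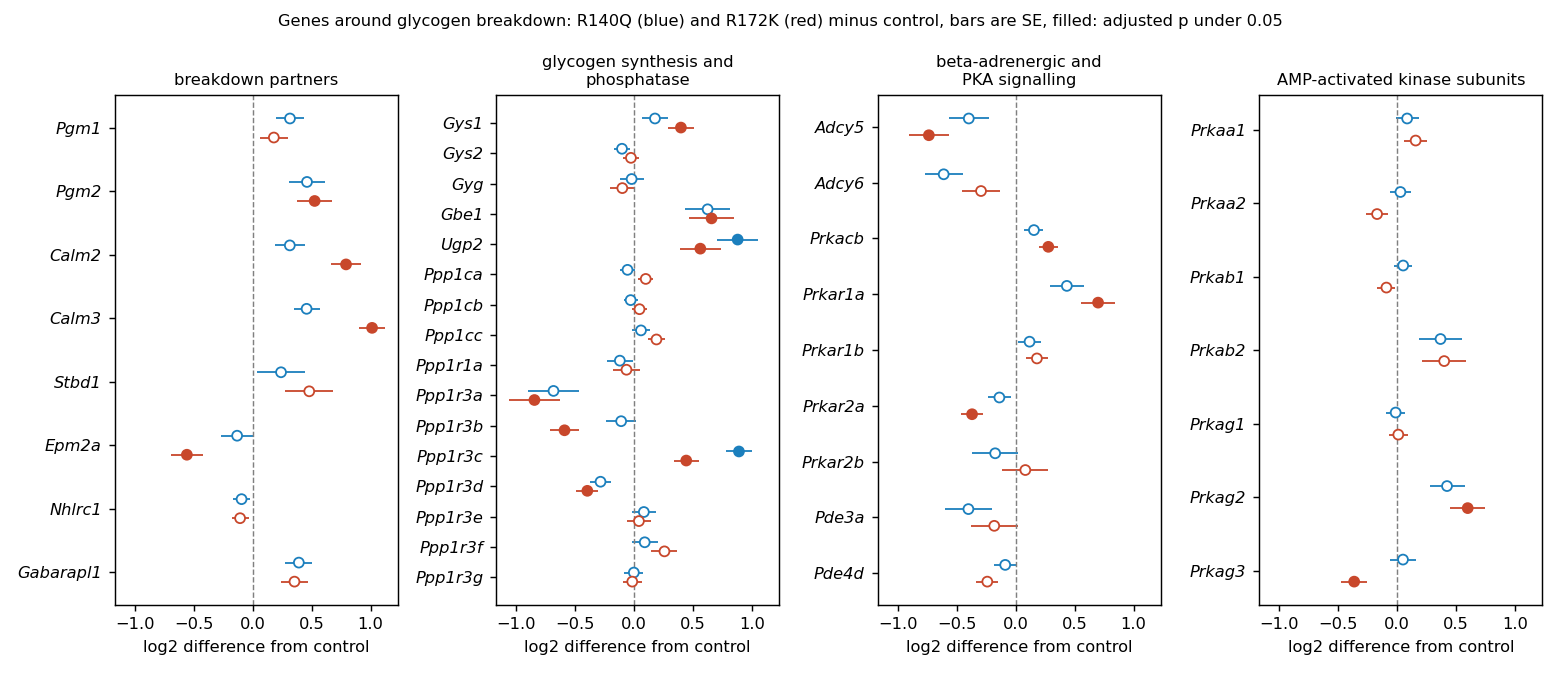
Log2 difference from control (horizontal axis) of the measured genes in 4 lists around glycogen breakdown (vertical axis), for R140Q in blue and R172K in red, with bars for SE and filled points for an adjusted p under 0.05. In R172K hearts Calm3 (1.01) and Calm2 (0.79) lie to the right and Ppp1r3a (-0.85) to the left.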

How the data were processed

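Heart RNA was measured on 12 Affymetrix arrays, 4 per group. The deposited table holds 1 intensity per probe set and array, and per the submitters' processing notes the authors used RMA, with no version given in the sources used here. The values showed a linear scale. RMA forces the arrays onto one distribution, which hides any change common to most genes. No detection calls were used.

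From the deposited intensity, log2 was taken with no pseudocount. The platform annotation gave 21640 of 34760 probe sets 1 symbol each, for 19937 genes, and the probe set with the highest mean stood for each gene. Group means of all 12 arrays were fitted with limma 3.58.1 in R 4.3.3 (lmFit, eBayes, two-sided), with 9 residual and 3.54 prior degrees of freedom. Adjusted p is Benjamini-Hochberg over 19937 genes. The fit was tested on simulated data. The number of arrays limits the precision. No 2 arrays held identical values.

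All 9 members were named. Pathway genes with an adjusted p under 0.05 against control were named up to 6 per list and contrast, and the genes with the highest r to a called member. Alternatives covered arrays, block, filter, features, centring, variance model, weights, threshold, Myl7 and omission of each array. Members, lists and tests were chosen with earlier results of these data known.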

Additional observations from a re-analysis of the deposited data

Results flagged for a closer look

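In the R172K group, Gaa on R172K 4 lay far from the other arrays, at 9.36 against 10.23 to 10.29, a gap of 0.939 of the range of the group. Without that array the Gaa difference was 0.09 against control and 0.27 against R140Q. Of 27 groups of 4 arrays examined, 9 genes in 3 groups, this was the only 1 beyond the 95% limit of Dixon's test, and chance gives about 1 in 20.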

How the results depend on the processing

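Over 23 alternatives, the Phkg1 fall held in all for R172K and in 22 for R140Q, and the Phkb fall in R172K hearts in 22, failing at an adjusted p under 0.01. The number of the 9 genes changed in R140Q hearts, 2 as reported, was 1 with the replicate block, with every probe set, at an adjusted p under 0.01 and without control 3, R172K 3 and R140Q 4, and 0 with Myl7 as a covariate (3 at an unadjusted p under 0.05 in limma). Omitting each array in turn gave 1 to 2. For R172K, 4 as reported, it was 1 at an adjusted p under 0.01 and 2 to 4 over omissions. Pygm was also lost there when only control and R172K arrays were fitted, and Phka1 without control 3, R172K 3 and R140Q 4 together. Between the mutants, 1 as reported, it was 2 with array weights and 0 with 8 arrays, the replicate block, every probe set, an adjusted p under 0.01 or Myl7 (limma, 2 to 3 at an unadjusted p under 0.05), and 0 to 1 over omissions. Same-numbered arrays did not deviate together (r from -0.336 to 0.152, and 3 of 12 arrays were closest to an array of their own number), so the labels' numbers were not taken as pairs. With the replicate block the calls lost were Phka1 in R140Q hearts (0.50, adjusted p = 0.0868) and Phkb between the mutants (-0.57, adjusted p = 0.0708).

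Small differences that did not pass changed sign in some alternatives. For R140Q, Pygb was 0.0065 with median centring and 0.076 with Myl7, Phkg2 was -0.018 and Pygl -0.10 without the 3 arrays, and Pygl was -0.23 with Myl7. For R172K, Phkg2 was 0.0033 with array weights and 0.018 without the 3 arrays. Between the mutants, Phkg1 was -0.093, Phkg2 0.036 and Phka1 0.018 without the 3 arrays, and with Myl7 Phkg1 was -0.14 and Phka1 0.14. Over omissions of 1 array, R140Q values ran from -0.034 to 0.073 for Phkg2, -0.059 to 0.036 for Pygb and -0.088 to 0.17 for Pygl. R172K values ran from -0.040 to 0.025 for Phkg2, -0.077 to 0.13 for Phka2 and -0.22 to 0.090 for Gaa. Between the mutants they ran from -0.083 to 0.024 for Phkg2, -0.10 to 0.019 for Phka1 and -0.079 to 0.27 for Gaa. Of the other glycogen genes called in R172K hearts, Pgm2, Gys1, Prkacb, Prkar2a and Prkag3 were not called with 8 arrays, Pgm2, Prkacb and Prkag3 with the replicate block, Pgm2, Gbe1, Ugp2, Prkacb and Prkag3 with every probe set, Prkar2a and Ugp2 without the 3 arrays, and Ugp2 with median centring, trend and robust priors or Myl7. Ugp2 in R140Q hearts was not called with Myl7. The cause of these changes was not tested. Median centring moved the median of all genes by less than 0.1. No detection calls were used, so dim values may be background.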
